A study of Caenorhabditis elegans with 16 samples.

Results

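Hemidesmosomes are the attachment structures of the C. elegans epidermis, called hypodermis in this study, and 6 genes that encode parts of them were followed here by name: let-805, mup-4, mua-3, vab-10, vab-19 and pat-12. All 6 names were found once in each table, among 19974 named genes. RNA polymerase scores of 5 of the 6 genes were called transcribed in hypodermis of both genotypes, where 7.53% of all named genes were called in baf-1(G12T) and 9.81% in WT. In intestine 1 of the 6 was called in baf-1(G12T) larvae, beside 10.5% of all genes, and 3 in WT larvae, beside 7.94%. Of the WT intestinal calls, vab-10 scored only 0.01 and pat-12 -0.00251, and no intestinal call of the 6 had a score above 0.2. Shares among long genes, such as these, were higher in all groups and are given below. mup-4 had the highest hypodermal score of the 6 in both genotypes, and vab-19 was the gene that was not called in hypodermis.

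Where body wall muscle underlies the epidermis, hemidesmosomes span the thin epidermal cell and pass the pull of the muscle to the cuticle. Each structure has transmembrane proteins on the apical side towards the cuticle and on the basal side towards the muscle, joined inside the cell by intermediate filaments and by cytoplasmic linker proteins. Loss of such proteins lets muscle come away from the body wall and paralyses or kills the embryo or larva.

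Transcription was measured by RAPID, which ties the bacterial adenine methyltransferase Dam to RPB-6, a subunit of RNA polymerase, and reads out the methylated GATC sites. For each of 4 groups of L4 larvae, the 16 libraries comprise 2 Dam::RPB-6 replicates and 2 replicates of the control fusion GFP::Dam. These groups are baf-1(G12T) hypodermis, WT hypodermis, baf-1(G12T) intestine and WT intestine. The baf-1(G12T) larvae carry a point mutation in the gene of the nuclear envelope protein BAF-1 as a model of Nestor-Guillermo progeria syndrome, and WT larvae carry the unmutated baf-1. Both genotypes carried the same single-copy Dam transgenes, driven by the hsp16.41 promoter once FLP recombinase had removed a blocking cassette. FLP came from the promoter of dpy-7 in the hypodermal strains and from that of nhx-2 in the intestinal strains. Each signal thus covers whichever cells had used that promoter. Among those cells, fewer that transcribe a gene and less polymerase per cell cannot be told apart. Growth lasted 48 h at a temperature of 20 °C in every group, and 4000 larvae were pooled for each DNA sample.

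The deposited value of a gene is 1 score per group, log2 of Dam::RPB-6 over GFP::Dam across the GATC fragments of the gene, with 1 false discovery rate (FDR) for the call of transcription. A gene was called at an FDR under 0.05, the threshold of the study. The replicates are already merged in these values, so no score below has a replicate error and no difference was tested. The tables hold no read counts, so no counting interval is given for a score. Of the listed markers, lin-26 and elt-3 were called in hypodermis of both genotypes and vit-2 in intestine of both, lin-26 was also called in WT intestine, at 0.14, and dpy-7, with 3 fragments, was called in no group. In all, 5 of 12 hypodermal markers were called in baf-1(G12T) hypodermis and 9 in WT hypodermis, against 1 and 2 in intestine of the same genotypes. None of the 11 intestinal markers matched was called in hypodermis of either genotype, and 6 were called in baf-1(G12T) intestine and 4 in WT intestine. Of 5 muscle markers 1 was called, unc-15 in baf-1(G12T) intestine. No germ line marker of 5 was called in any group, and of 5 neuronal markers 1 was called in baf-1(G12T) hypodermis and 2 in each other group. rpb-6, which the fusion carries, was called in no group. It scored 0.20 in baf-1(G12T) hypodermis, against -0.14 in WT hypodermis, and 0.14 in baf-1(G12T) intestine, against -0.37 in WT intestine. baf-1 itself, with only 4 fragments, scored 0.72 in baf-1(G12T) hypodermis, against 0.15 in WT hypodermis, and 0.81 in baf-1(G12T) intestine, against 2.02 in WT intestine. All of these were called except that in WT hypodermis (FDR 0.13).

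The windows just before the annotated start of 3 genes are shown for their letters GATC, the sites that Dam can mark. They lie outside the gene, and the sites in them are not among those that give its fragment number. mup-4 was chosen as the member with the highest hypodermal score, let-805 as the longest receptor gene, and vab-19 as the member without a hypodermal call. The 250 bases upstream of the gene start were read from the RefSeq genome of WBcel235, in the direction of the gene, at chrIII:7489106-7489355 on the minus strand for mup-4, at chrIII:2657833-2658082 on the plus strand for let-805 and at chrII:2443029-2443278 on the plus strand for vab-19. Capitals mark GATC, where Dam methylates, and TGATAA or its reverse complement TTATCA, letters to which GATA factors are known to bind.
mup-4: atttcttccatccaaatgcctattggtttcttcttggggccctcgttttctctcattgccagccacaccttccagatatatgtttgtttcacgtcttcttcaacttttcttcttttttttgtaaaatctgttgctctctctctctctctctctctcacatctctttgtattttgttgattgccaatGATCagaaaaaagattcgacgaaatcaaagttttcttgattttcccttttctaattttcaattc
let-805: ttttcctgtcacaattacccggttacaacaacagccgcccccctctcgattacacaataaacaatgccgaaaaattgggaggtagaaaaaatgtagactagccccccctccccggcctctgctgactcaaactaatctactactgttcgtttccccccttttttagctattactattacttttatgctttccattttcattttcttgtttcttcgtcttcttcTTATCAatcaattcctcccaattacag
vab-19: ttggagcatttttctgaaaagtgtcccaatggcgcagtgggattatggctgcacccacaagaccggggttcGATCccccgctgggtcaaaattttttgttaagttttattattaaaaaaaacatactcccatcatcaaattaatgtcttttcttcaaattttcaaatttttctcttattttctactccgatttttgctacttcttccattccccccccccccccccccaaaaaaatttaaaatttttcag
The mup-4 and vab-19 windows each hold 1 GATC and the let-805 window holds 0. The let-805 window holds 1 TTATCA, close to its end. Both motifs were searched on both strands, and among the windows of 19310 protein-coding genes GATC occurred in 38.2% and TGATAA in 26.7%. The let-805 and vab-19 windows end in AG, as do 27.7% of all windows, and AG is the dinucleotide of splice acceptors, which C. elegans also uses for trans-splicing of leader sequences. In the vab-19 window the GATC lies inside an annotated pseudogene (chrII:2443051-2443116, plus strand). The windows of mua-3 and pat-12 hold neither motif. A match of letters is not a bound site, and a window without a match holds no information on any factor.

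The genes are long and so are measured over many fragments. Across all named genes the median was 7 GATC fragments and the maximum 353. let-805 had 128 fragments over 23030 bp (chrIII:2658083-2681112, plus strand), with 5.51 GATC sites per kb, the densest of the 6. mua-3 had 93 over 22833 bp (chrIII:10160697-10183529, plus strand) and pat-12 had 77 over 25220 bp (chrIII:727207-752426, minus strand). The shorter genes were mup-4 with 46 fragments over 9426 bp (chrIII:7479680-7489105, minus strand) and vab-19 with 30 over 7669 bp (chrII:2443279-2450947, plus strand). All 6 lay at or above percentile 94.7 for fragment number. Because calls were more frequent among genes with many fragments, the members were also set beside the 927 genes with at least 32 fragments, a class that holds 5 of the 6 and leaves out vab-19. For each member, as for 98.8% of the genes placed on WBcel235, the deposited fragment number equalled the GATC sites counted within the gene plus 1.

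let-805 encodes the basal receptor, myotactin, a transmembrane protein with fibronectin type III repeats that lies on the epidermal side facing muscle. Its longest annotated protein has 4450 residues, and 61.7% of the gene is exonic. The score of let-805 was 0.55 in baf-1(G12T) hypodermis (FDR 7.3e-21) and 0.48 in WT hypodermis (FDR 1.2e-28), against -0.05 in baf-1(G12T) intestine and -0.14 in WT intestine (FDR 1 in both). In linear terms, Dam::RPB-6 stood at 1.47 times GFP::Dam in baf-1(G12T) hypodermis and 1.39 times in WT hypodermis. Hypodermis was high in both genotypes and intestine low in both. Among genes with at least 32 fragments, let-805 ranked 21 of 927 in baf-1(G12T) hypodermis and 19 in WT hypodermis, against 620 in baf-1(G12T) intestine and 696 in WT intestine.

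mup-4 and mua-3 encode the apical receptors, related transmembrane proteins with EGF-like repeats that connect intermediate filaments to the cuticle. The score of mup-4 was 1.16 in baf-1(G12T) hypodermis (FDR 1.4e-18) and 0.93 in WT hypodermis (FDR 5.6e-22), against -0.25 in baf-1(G12T) intestine (FDR 1) and -0.03 in WT intestine (FDR 0.134). The hypodermal scores correspond to Dam::RPB-6 at 2.23 times GFP::Dam in baf-1(G12T) and 1.91 times in WT. mup-4 ranked 5 of the 927 long genes in baf-1(G12T) hypodermis and 3 in WT hypodermis. In baf-1(G12T) intestine it stood near the bottom of this class, at percentile 2.59, and in WT intestine at percentile 72.2. The gene thus combined the highest hypodermal values of the set with its lowest intestinal value.

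The score of mua-3 was 0.37 in baf-1(G12T) hypodermis (FDR 1.7e-09) and 0.11 in WT hypodermis (FDR 2.2e-04), against -0.06 in baf-1(G12T) intestine and -0.09 in WT intestine (FDR 1 in both). mua-3 was the lowest of the 5 called members in WT hypodermis, at percentile 82.8 of the long genes, and was at percentile 94.5 in baf-1(G12T) hypodermis. Its protein of 3767 residues is longer than that of mup-4, which has 2104. Although both receptors sit on the apical side, mup-4 scored higher than mua-3 in hypodermis of both genotypes. The scores average over the whole gene and are ratios, so this is not a comparison of transcript number.

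VAB-10 is the spectraplakin of C. elegans, a giant cytoplasmic linker whose A isoforms belong to the hemidesmosome and whose B isoforms act elsewhere in the epidermis and other tissues. vab-10 was the longest gene of the set, with 247 fragments over 57568 bp (chrI:11747424-11804991, minus strand), 14 annotated transcripts and a longest protein of 5059 residues. Its score was 0.44 in baf-1(G12T) hypodermis (FDR 3.3e-29) and 0.26 in WT hypodermis (FDR 8.6e-28), against 0.11 in baf-1(G12T) intestine (FDR 4.1e-10) and 0.01 in WT intestine (FDR 2.1e-04). vab-10 was the only member called in all 4 groups. Its WT intestinal value corresponds to Dam::RPB-6 at 1.00 times GFP::Dam, so the call rests on a score next to 0. A single score covers all isoforms, and the A and B forms cannot be told apart in it.

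PAT-12 is a nematode protein of the epidermal attachment structures, and its gene has 19 annotated transcripts with only 26.3% of its length exonic. The score of pat-12 was 0.29 in baf-1(G12T) hypodermis (FDR 7.1e-06) and 0.43 in WT hypodermis (FDR 3.1e-16), against -0.01 in baf-1(G12T) intestine (FDR 1) and -0.00251 in WT intestine (FDR 0.0319). As deposited, pat-12 was the only member with a lower hypodermal score in baf-1(G12T) than in WT, and under quantile normalization or scaling of the groups to equal SD mup-4 and let-805 joined it. Its call in WT intestine was given to a score below 0. In that group 8 genes were called at a score of 0 or less, all of them with at least 32 fragments, whereas the lowest called score was 0.05 in baf-1(G12T) intestine, 0.16 in baf-1(G12T) hypodermis and 0.06 in WT hypodermis.

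VAB-19 is an ankyrin-repeat protein of the Kank family that holds attachment components and the epidermal actin cytoskeleton in place. The score of vab-19 was 0.11 in baf-1(G12T) hypodermis (FDR 0.282) and 0.04 in WT hypodermis (FDR 0.253), against -0.00437 in baf-1(G12T) intestine (FDR 0.567) and 0.17 in WT intestine (FDR 0.00197). It was thus called in WT intestine alone, where it stood at percentile 93.8 of all genes. Both hypodermal values lay below the lowest score called for any gene in the same group, 0.16 in baf-1(G12T) and 0.06 in WT. With 30 fragments it was also the member measured at the fewest sites. A missing call says that the score was not distinguishable at this number of fragments, not that the gene is silent.

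**Figure D1:**
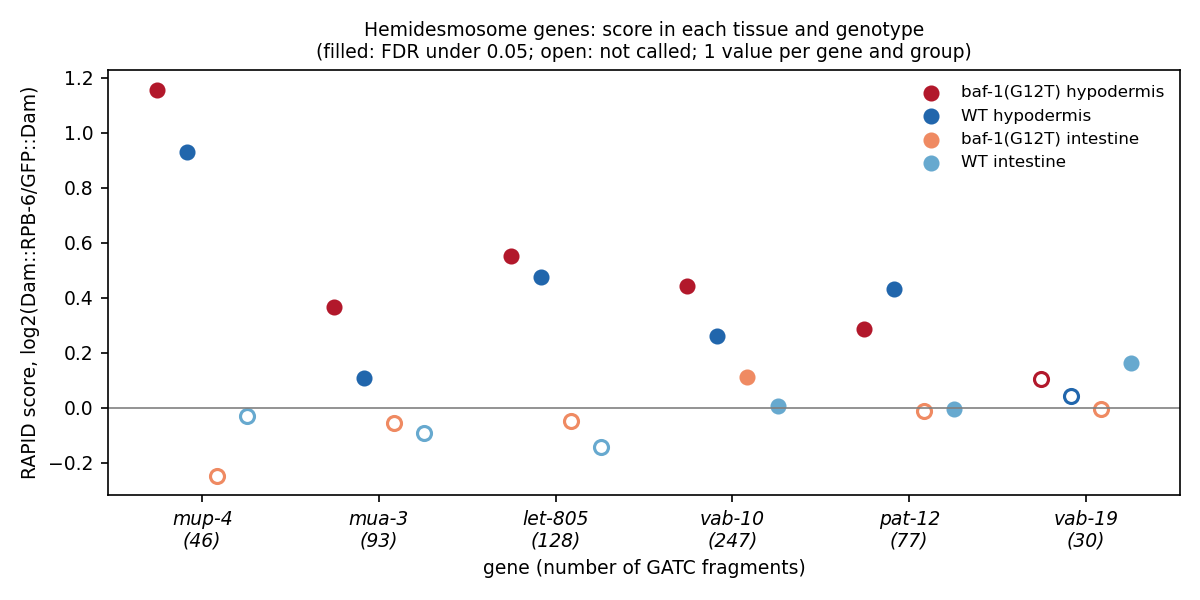
Score of each hemidesmosome gene, log2 of Dam::RPB-6 over GFP::Dam, in the 4 groups of tissue and genotype, with 1 value per gene and group and filled points where the FDR was under 0.05. mup-4 lies highest in hypodermis, at 1.16 in baf-1(G12T) and 0.93 in WT, and the intestinal points of the 6 genes lie between -0.25 and 0.17.

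Taking the 6 genes as a group, 5 were called in baf-1(G12T) hypodermis, where 7.53% of all named genes and 14.6% of those with at least 32 fragments were called. In WT hypodermis 5 were called, beside 9.81% of all genes and 20.3% of the long ones. The 5 members of the long class were the ones called in both. In baf-1(G12T) intestine 1 member was called, vab-10, beside 10.5% of all genes and 23.4% of the long genes. In WT intestine the calls were vab-10, vab-19 and pat-12, with a background of 7.94% of all genes and 18.9% of the long genes, of which vab-10 and pat-12 are 2. Requiring in addition a score above 0.2 removed every intestinal call of the members and, in WT hypodermis, that of mua-3, which left 4. The median score of the members was 0.41 in baf-1(G12T) hypodermis and 0.35 in WT hypodermis, where the median of all genes was -0.02 and -0.04 in the same groups. In intestine the members' median was -0.03 in baf-1(G12T) and -0.01 in WT, beside -0.02 and -0.07 over all genes.

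The comparison of tissues asks which of these epidermal genes carried more polymerase signal in hypodermis than in intestine. In baf-1(G12T) larvae all 6 had the higher score in hypodermis, where 56.3% of all genes and 51% of the long genes did. The difference was 1.41 for mup-4, 0.60 for let-805, 0.42 for mua-3, 0.33 for vab-10, 0.30 for pat-12 and 0.11 for vab-19. In WT larvae 5 of 6 had the higher score in hypodermis, among them all 5 of the long class, beside 64.1% of all genes and 64.7% of the long genes. The difference was 0.96 for mup-4, 0.62 for let-805, 0.43 for pat-12, 0.25 for vab-10, 0.20 for mua-3 and -0.12 for vab-19. The members' median difference was 0.38 in baf-1(G12T) and 0.34 in WT, where the median of all genes was 0.01 and 0.02. These signs stayed the same for every member in both genotypes under centring, quantile normalization and scaling to equal SD.

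A difference over 1 in a gene called in at least 1 of the groups compared, which is the average part of the study's rule for a change between genotypes without its requirement on the separate replicates, was passed by mup-4 in baf-1(G12T). It was the single member past it among 5 called, beside 12.6% of called genes, and in WT 0 of 6 passed, beside 11.6%. The WT difference of mup-4 came just short of this size, and was 1.00 after quantile normalization and 1.04 after scaling to equal SD. At a difference over 0.58, mup-4 and let-805 passed in each genotype, 2 of 5 members in baf-1(G12T) beside 33.6% of genes and 2 of 6 in WT beside 33.4%. At a difference over 0.25, 5 of 5 passed in baf-1(G12T) beside 74.9%, and 4 of 6 in WT beside 73.9%. The shares of called genes count differences in either direction, whereas each member that passed was higher in hypodermis. A share for that direction alone was not taken. By these counts the share of members past each size was near that of called genes of any fragment number, with both directions counted. No such share was taken among the long genes, whose differences spread less. The SD of the tissue difference was 0.23 across the 927 long genes in baf-1(G12T) and 0.21 in WT, against 0.32 and 0.30 across all genes. Among the 927 long genes mup-4 ranked 3 in baf-1(G12T) and 4 in WT, while let-805 ranked 17 in each. pat-12 ranked 70 in baf-1(G12T) and 40 in WT. vab-10 ranked 58 in baf-1(G12T) and 116 in WT, and mua-3 ranked 41 in baf-1(G12T) and 164 in WT.

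**Figure D2:**
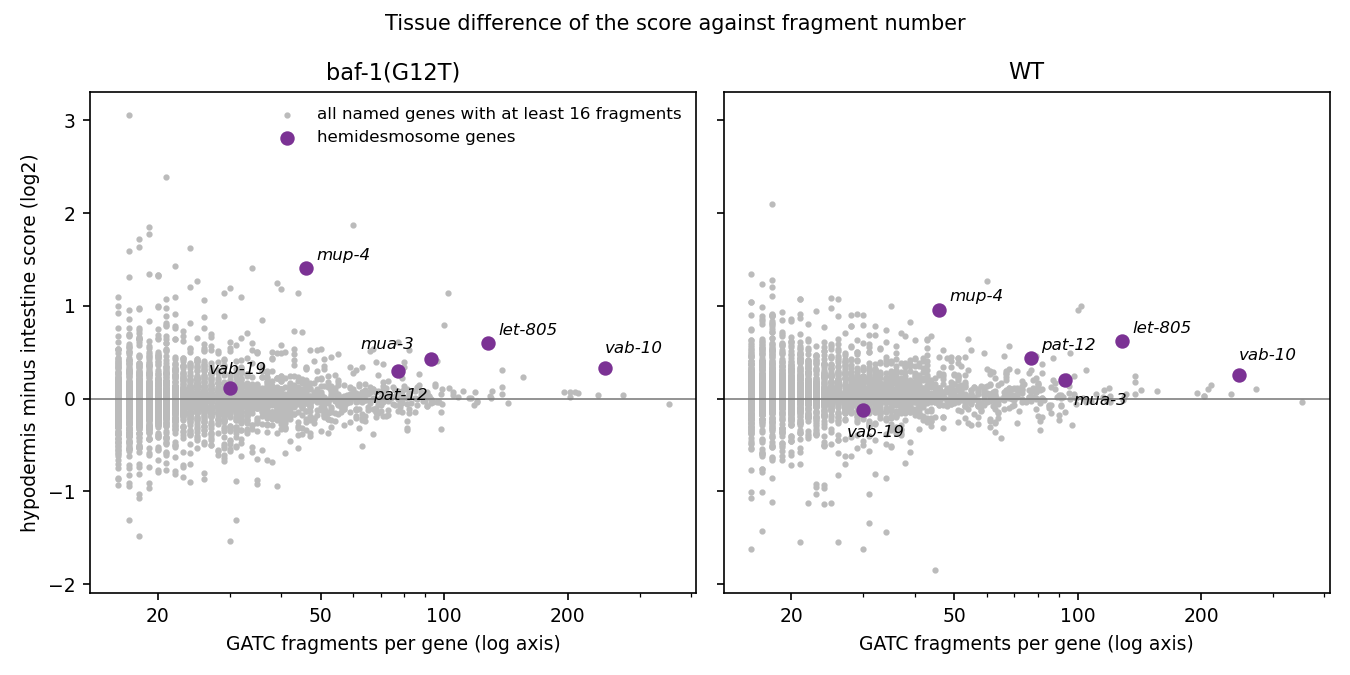
Hypodermis minus intestine score on the log2 scale against the number of GATC fragments on a log axis, in baf-1(G12T) and WT, with grey points for named genes with at least 16 fragments and purple points for the hemidesmosome genes. mup-4 stands at 1.41 in baf-1(G12T) and 0.96 in WT, and vab-19 lies nearest to or below 0, at 0.11 in baf-1(G12T) and -0.12 in WT.

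The comparison of genotypes asks whether baf-1(G12T) larvae differed from WT larvae within a tissue. In hypodermis 0 of the 5 called members passed a difference over 1, beside 10.9% of called genes, and 0 passed 0.58, beside 31.5%. mua-3 passed 0.25, 1 of 5 beside 71.5% of genes. These shares cover called genes of any fragment number, and none was taken among the long genes, whose differences spread less. The differences were 0.26 for mua-3, 0.18 for vab-10, 0.06 for vab-19 and -0.15 for pat-12. The difference was 0.23 for mup-4, which turned to -0.14 after quantile normalization and -0.04 after scaling to equal SD, and 0.08 for let-805, which turned to -0.00904 and -0.05 under the same settings. As deposited, 5 of 6 members lay higher in baf-1(G12T) hypodermis, beside 60.3% of all genes, and 4 of 5 of the long class, beside 62.9%, with mup-4 and let-805 counted although they turned under those settings. Of the hypodermal markers beside these values, 5 of 12 were called with a median score of 0.04 in baf-1(G12T) hypodermis, against 9 called and a median of 0.38 in WT hypodermis. Gene by gene they had no common direction, with 6 of 12 higher in baf-1(G12T) hypodermis, a median difference of 0.00370, and 2 past a difference over 1, both higher in baf-1(G12T). Their part in the result was not tested. The SD of the genotype difference in hypodermis was 0.15 across the 927 long genes, against 0.27 across all genes. Among the long genes mua-3 stood at percentile 93.0, mup-4 at 91.8 and pat-12 at 9.92.

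In intestine 0 of the 3 called members passed a difference over 1, 0.58 or 0.25, beside 5.74%, 23.3% and 64.9% of called genes. These shares too cover called genes of any fragment number. The SD of the genotype difference in intestine was 0.14 across the 927 long genes, against 0.25 across all genes. The differences were 0.11 for vab-10, 0.10 for let-805, -0.00781 for pat-12, -0.17 for vab-19 and -0.22 for mup-4, and 0.03 for mua-3, which turned to -0.01 after centring and -0.02 after quantile normalization. As deposited, 3 of 6 lay higher in baf-1(G12T) intestine, beside 66.7% of all genes, and 3 of 5 of the long class, beside 76.9%, with mua-3 counted although it turned under those settings. The values of mup-4 and vab-19 were at percentiles 5.12 and 6.27 of all genes. Among the long genes, a class that leaves out vab-19, mup-4 was at percentile 1.83. mup-4 was not called in intestine of either genotype, and the difference of vab-19 goes with its call in WT intestine and not in baf-1(G12T) intestine.

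**Figure D3:**
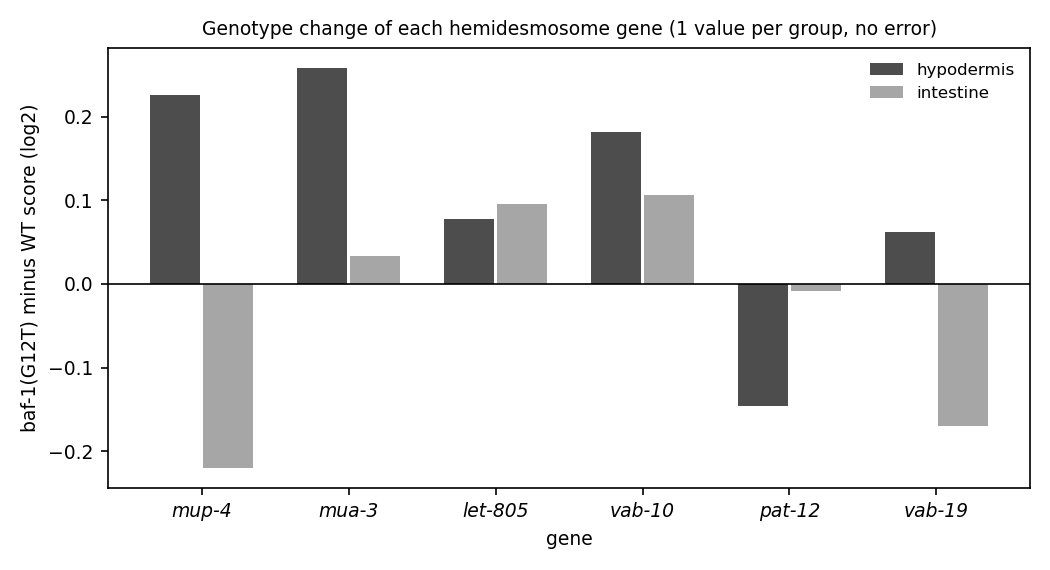
baf-1(G12T) minus WT score on the log2 scale for each hemidesmosome gene, with dark bars for hypodermis and light bars for intestine and 1 value per bar. In hypodermis the bars span -0.15 for pat-12 to 0.26 for mua-3, and in intestine -0.22 for mup-4 to 0.11 for vab-10.

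Other genes of the attachment were taken from lists set by role. Of the epidermal partners, 9 of 11 listed names matched, and 4 were called in baf-1(G12T) hypodermis and 5 in WT hypodermis, against 5 in baf-1(G12T) intestine and 1 in WT intestine. The shares of all named genes called in these groups were 7.53%, 9.81%, 10.5% and 7.94%, in the same order, and 1 of 9 is near its background. mua-6, a gene of an epidermal intermediate filament protein, had a score of 1.44 in baf-1(G12T) hypodermis and 0.30 in WT hypodermis, against -0.19 in baf-1(G12T) intestine and -0.31 in WT intestine. Its tissue difference in baf-1(G12T) was 1.63 and its genotype difference in hypodermis 1.14, the only values of this list past the size of 1, and the genotype difference was 0.79 after quantile normalization and 0.87 after scaling to equal SD. ifb-1, which encodes the filament protein that pairs with the A-type chains, had 0.28 in baf-1(G12T) hypodermis, 0.50 in WT hypodermis and 0.11 in baf-1(G12T) intestine, all called, and -0.06 in WT intestine. ifa-3, another A-type filament gene, was called in hypodermis alone, at 0.28 in each genotype. Filament genes thus gave hypodermal calls beside those of the transmembrane receptors, except ifa-1, which was called only in baf-1(G12T) intestine, at 0.25.

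The signalling genes of this list had other patterns. pix-1, which encodes a guanine nucleotide exchange factor found at hemidesmosomes, was called in all 4 groups, at 0.66 in baf-1(G12T) hypodermis, 0.54 in WT hypodermis, and 0.35 in intestine of each genotype. git-1, the gene of its binding partner, was called in none, and the kinase gene pak-1 was called only in baf-1(G12T) intestine, at 0.28. unc-23, a gene of a BAG-domain chaperone regulator, was also called only there, at 0.46, and mec-8, which encodes an RNA-binding splicing factor, only in WT hypodermis, at 0.25.

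The apical extracellular matrix, to which the apical receptors connect, was represented by 5 genes, of which 2 were called in baf-1(G12T) hypodermis, 4 in WT hypodermis, 0 in baf-1(G12T) intestine and 1 in WT intestine, beside 7.53%, 9.81%, 10.5% and 7.94% of all named genes in the same order. noah-1, a gene of a zona pellucida domain protein of the apical matrix, scored 0.97 in baf-1(G12T) hypodermis and 0.99 in WT hypodermis, against -0.10 in baf-1(G12T) intestine and -0.08 in WT intestine. Its tissue difference was over 1 in both genotypes, 1.08 in baf-1(G12T) and 1.07 in WT, and in baf-1(G12T) it was 0.85 after quantile normalization and 0.94 after scaling to equal SD. The related gene noah-2 had 0.19 in baf-1(G12T) hypodermis and 0.39 in WT hypodermis, both called. sym-1, which encodes a leucine-rich repeat matrix protein, had 0.19 in baf-1(G12T) hypodermis, where it was not called, and was called in WT hypodermis, at 0.73. Its WT tissue difference was 1.05, or 0.96 after quantile normalization. The fibrillin-like gene fbn-1 was called in WT hypodermis alone, at 0.28 against -0.07 in baf-1(G12T) hypodermis, and dex-1 in WT intestine alone, at 0.09.

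On the muscle side of the attachment, 17 genes of integrin complexes and basement membrane were measured, and 1 was called in baf-1(G12T) hypodermis, 4 in WT hypodermis, 4 in baf-1(G12T) intestine and 3 in WT intestine. All named genes gave 7.53%, 9.81%, 10.5% and 7.94% in the same order, and the genes with at least 32 fragments gave 14.6%, 20.3%, 23.4% and 18.9%. Some of the list are in that class, among them unc-52 with 138 and tln-1 with 76. Most are not, such as nid-1 with 30, pat-3 with 20 and pat-4 with 16. Neither share is therefore a matched background for the 17. Only genes called in a group compared could pass the size of a difference, and in each comparison most of the 17 were not. Of those called, none passed a difference over 1 in any of the 4 comparisons, beside 5.74% to 12.6% of called genes. With so few called, this is near the background. unc-52, the perlecan gene, was called at 0.30 in baf-1(G12T) hypodermis and 0.23 in WT hypodermis, and at 0.04 in WT intestine. The other calls in WT hypodermis were tln-1 (talin) at 0.18, pat-3 (beta integrin) at 0.16 and pat-4 (integrin-linked kinase) at 0.17. In intestine nid-1 (nidogen) was called in both genotypes, at 0.41 in baf-1(G12T) and 0.24 in WT, unc-97 (PINCH) in WT at 0.37, and in baf-1(G12T) unc-112 (kindlin) at 0.15, deb-1 (vinculin) at 0.07 and tln-1 at 0.14. The median of this list lay between -0.11 and -0.01 in the 4 groups, whereas that of the hemidesmosome genes was 0.35 or above in hypodermis. In intestine the median of the hemidesmosome genes was -0.03 in baf-1(G12T) and -0.01 in WT, within the range of this list.

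**Figure D4:**
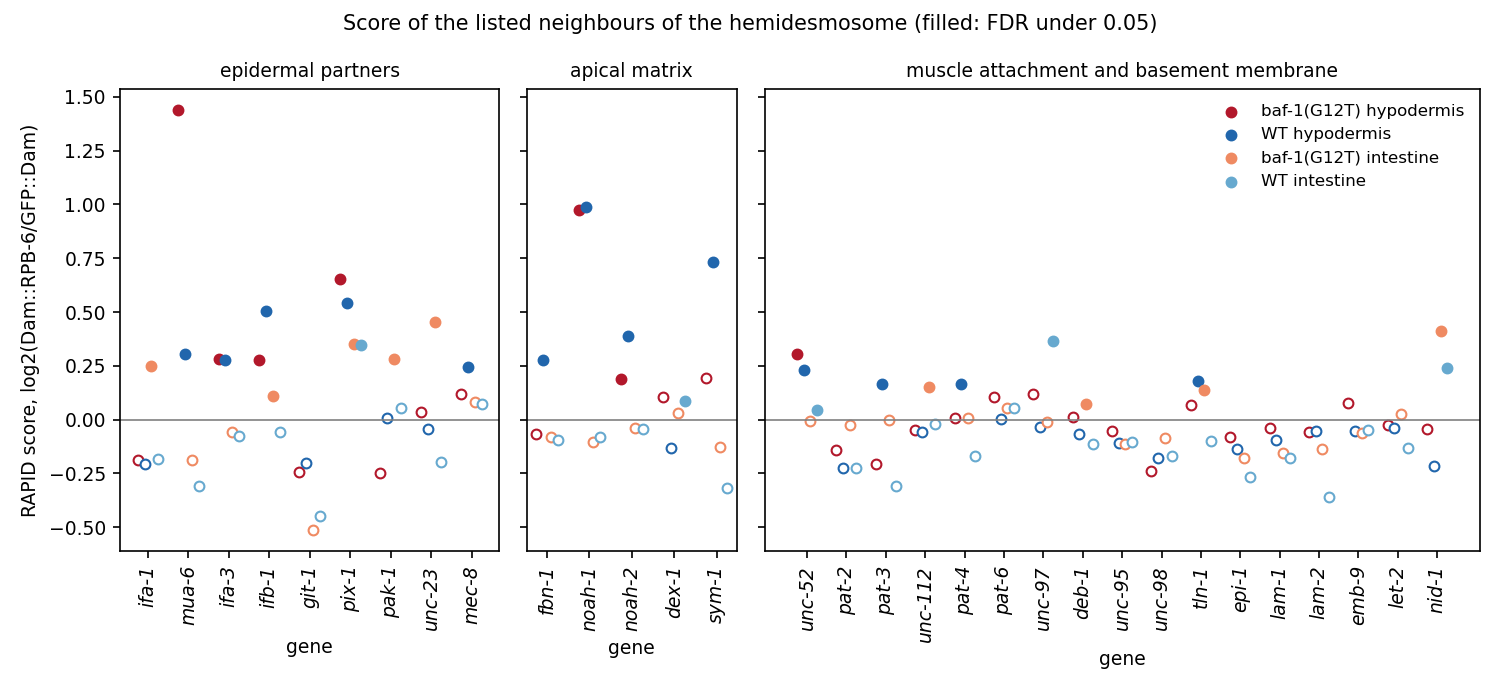
Scores on the log2 scale of the listed epidermal partner, apical matrix and muscle attachment genes in the 4 groups, with 1 point per gene and group, filled where the FDR was under 0.05. In baf-1(G12T) hypodermis the highest partner gene is mua-6 at 1.44, and the muscle attachment genes reach at most 0.30.

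The genes next to the members were scored in the same way. Of the 12 nearest flanking genes, 1 was called in baf-1(G12T) hypodermis and 1 in WT hypodermis, both times zmp-2. In intestine 1 was called in baf-1(G12T) and 2 in WT. All named genes gave 7.53%, 9.81%, 10.5% and 7.94% in the same order, so 1 of 12 is near the background. The median score of the flanking genes was 0.05 in baf-1(G12T) hypodermis and -0.03 in WT hypodermis. zmp-2 lies 15218 bp from let-805, with 0.74 in baf-1(G12T) hypodermis and 0.28 in WT hypodermis. In intestine cgh-1, 6214 bp from mup-4, was called in both genotypes, at 0.51 in baf-1(G12T) and 0.57 in WT, while mup-4 was not. unc-47, 232 bp beyond the end of mua-3, was called in WT intestine at 0.10. idpp-1 (T17H7.1 in the tables) lies wholly inside pat-12 on the opposite strand, and was called in hypodermis of both genotypes, at 0.32 in baf-1(G12T) and 0.54 in WT. Its 9 fragments are also fragments of pat-12, and RAPID does not resolve the strand, so the signal of the pair cannot be told apart there. Y47H9B.2 overlaps vab-10 by 28 bp and was called in no group.

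For each member the genes with the most similar pattern were taken by the Euclidean distance over the 4 scores, among 3561 named genes with at least 16 fragments. The closest to let-805 was ccch-1 at a distance of 0.11, followed by F55A11.6 and die-1. mup-4 had no gene within 0.2, and its closest were pmt-1 at 0.24, noah-1 at 0.25 and srap-1 at 0.26. The closest to mua-3 were kel-3, shc-2 and mel-46, the closest to vab-10 were ain-2, spsb-1 and lgl-1, and the closest to pat-12 were clec-180, lgc-45 and mca-2, at distances of 0.06 to 0.12. vab-19 was nearest to Y82E9BR.16 at 0.04, F59B8.1 at 0.05 and inx-20 at 0.07. No member was among the closest 3 of another member.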

How the data were processed

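RAPID libraries were made from 16 samples, 200 ng of DNA each with 14 PCR cycles. The authors mapped adapter-bearing reads at GATC sites of ce11 with RDamIDSeq. They scaled Dam::RPB-6 against GFP::Dam in damidseq_pipeline and derived a score per gene in polii.gene.call, using WBCel235 gene models. Deposited scores are log2 ratios. The deposited FDR, a q-value made by the authors, was used as given. The sources used here do not say how the 2 replicates were merged. No counts stand in the tables, so no interval could be given.

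The scores were subtracted between groups without a test. Of 19985 rows, 11 name no gene and were left out. Positions came from Ensembl release 115 and sequence from the RefSeq genome, both WBcel235. A gene was called at an FDR under 0.05, and a difference was past the size when over 1 in a gene called in at least 1 group. The study also required detection in both replicates, which merged values do not allow. The names ifa-2, mua-1 and opt-2 were not matched, and ifa-2 is the gene listed as mua-6. Named genes are the 6 members, list genes called in at least 1 group or past that size, rpb-6, baf-1, overlapping and nearest genes, the 3 most similar genes, and at most 4 markers, with unc-15 and git-1 named after their values were seen. The members and lists were chosen with earlier results of these data known. As alternatives, the FDR limit was set to 0.01 or 0.1, a score above 0.2 was required in addition, and differences over 0.58 or 0.25 were counted, with at least 8 fragments for the background, and scores were centred, quantile normalized or scaled to equal SD. Scripts were tested on simulated data with known answers. The software was Python 3.11.15 with matplotlib 3.10.9, scipy 1.17.1, pandas 2.3.3 and numpy 2.4.6.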

Additional observations from a re-analysis of the deposited data

Results flagged for a closer look

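For mup-4 and vab-19 the difference between baf-1(G12T) and WT had opposite signs in the tissues, and this was not tested, since each group has 1 value. For mup-4 the difference was 0.23 in hypodermis, where it turned negative under quantile normalization and scaling to equal SD, and -0.22 in intestine, and the hypodermal difference exceeded the intestinal by 0.45, or by 0.14 after quantile normalization. For vab-19 it was 0.06 in hypodermis and -0.17 in intestine, 0.23 apart. Opposite signs occurred in 47.1% of all named genes, in 43.1% of the 927 genes with at least 32 fragments and in 33.3% of the members.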

How the results depend on the processing

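No paired analysis was possible because each group has 1 merged value per gene, and for the same reason no replicate could be left out. With a minimum score of 0.2 beside the FDR, 0 members were called in baf-1(G12T) intestine (1 without it) and 0 in WT intestine (3 without it), and 4 in WT hypodermis (5 without it). At an FDR under 0.01, 2 were called in WT intestine. The number of members past the size of a difference between tissues in WT was 0 as deposited, 1 after quantile normalization, 1 after scaling to equal SD, 2 at 0.58 and 4 at 0.25. In baf-1(G12T) it was 1 as deposited, 2 at 0.58 and 5 at 0.25, and for the genotype difference in hypodermis 0 as deposited and 1 at 0.25. The difference between tissues in the genotype difference was taken under centring and quantile normalization but not under scaling. Across centring, quantile normalization and, for the other differences, scaling, 77 of 84 values of the members kept their sign. The 7 that did not were the hypodermal genotype difference of let-805 and mup-4 under quantile normalization and under scaling, the intestinal one of mua-3 under centring and quantile normalization, and the difference between tissues in the genotype difference of let-805 under centring. The cause was not tested. The tables hold no read counts, and genes with many fragments were called more often.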
